A study of Mus musculus with 12 samples.

Results

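Mt1 and Mt2, the metallothionein genes of liver, and 5 genes of glucocorticoid signalling, Fkbp5, Tsc22d3, Sgk1, Zbtb16 and Nr3c1, were followed in mouse liver RNA-seq libraries. They were taken by gene symbol from the deposited expression table, which matched 7 of its 17871 genes, and all 7 passed the filter on low counts. The 12 libraries came from the livers of male mice, 3 in each of 4 groups. The strain is written IRC in the labels and ICR in the study's methods, and the mice were 3 weeks old when dosing began. BA10 mice received a single intraperitoneal injection of busulfan at 40 mg/kg, followed by alginate oligosaccharides (AOS) at 10 mg/kg by daily gavage over 5 weeks. BA0 mice received the same busulfan injection and then water. A10 mice received AOS at 10 mg/kg for 5 weeks without busulfan, and A0 mice received water alone. Busulfan is an alkylating chemotherapy agent, and AOS are short sugar chains cut from the alginate of brown algae. The labels' tissue field says "Cells", whereas their protocol text names liver, and 8 hepatocyte markers summed to between 73700 and 103000 CPM in each library (CPM, the count per 1000000 counts of the scaled library total). The labels do not state that each library came from a separate mouse, so that a p-value measures the spread between these libraries.

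Metallothioneins are small cysteine-rich proteins that bind zinc and copper. Their genes are switched on by metals through the zinc-sensing factor Mtf1, and also by glucocorticoids and by inflammatory signals. Glucocorticoids such as corticosterone bind the receptor encoded by Nr3c1, which leaves its Hsp90 chaperone complex, enters the nucleus and binds DNA. Fkbp5 encodes a co-chaperone of that complex that lowers the affinity of the receptor for hormone, and it is itself a receptor target. Tsc22d3 (also called GILZ), Sgk1 (a kinase acting on ion transport) and Zbtb16 (the zinc finger repressor PLZF) are targets of the receptor in many tissues. In bulk liver RNA, fewer cells of a type and less RNA per cell cannot be told apart.

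Library totals lay between 16439508 and 18174590 counts. A0 replicates 1 and 2 stood apart. Their scaling factors (trimmed mean of M values, TMM) were 0.851 and 0.879, against 0.97 to 1.077 in the other 10 libraries. A trend over transcript length and GC content took 21.4% and 13.9% of the variance of their log2 deviations from the all-library mean, against 0.3% to 5.8% elsewhere. The fitted trend was higher for the shortest 10% of transcripts than for the longest 10% by 0.46 and 0.45 on the log2 scale in these 2 libraries and by 0.18 in A0 replicate 3. In the 9 libraries of the other groups this difference lay between -0.24 and -0.04. Lung markers also moved with A0: 5 of them summed to 0.535 to 1.27 CPM in A0 and to 6.32 to 9.7 CPM in the other groups, and Sftpc was at 0 in A0. BA10, BA0 and A10 were all set against the same 3 A0 libraries, so that these comparisons share their controls, and the part of these library differences in them was not tested beyond the values without those libraries or without the trend.

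Mt1 and Mt2 lie side by side on chromosome 8 (mm10; Mt1 at chr8:94179082-94180327, Entrez 17748, and Mt2 at chr8:94172664-94173568, Entrez 17750, both on the plus strand). Because they are close copies, their coding sequences (GENCODE M21) are printed to show how alike they are, with the codons TGC and TGT, which encode cysteine, in capitals.
Mt1 coding: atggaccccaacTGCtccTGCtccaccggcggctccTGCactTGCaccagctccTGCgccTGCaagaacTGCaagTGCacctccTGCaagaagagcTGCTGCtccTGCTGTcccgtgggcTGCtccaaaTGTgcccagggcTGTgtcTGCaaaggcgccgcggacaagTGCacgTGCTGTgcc
Mt2 coding: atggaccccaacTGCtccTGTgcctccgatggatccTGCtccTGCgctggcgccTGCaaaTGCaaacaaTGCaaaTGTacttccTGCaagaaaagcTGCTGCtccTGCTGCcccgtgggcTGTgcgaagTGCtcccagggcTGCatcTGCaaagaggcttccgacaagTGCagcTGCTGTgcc
Both run over 61 codons, 20 of which are cysteine codons, and all 20 stand at the same position in both. The sequences are identical at 145 of 183 bases (79.2%). The 2 whole transcripts shared no run longer than 20 bases, and 0 of 500 windows of 50 bases of Mt1 came within 2 mismatches of a window of Mt2. Other read lengths and mismatch limits were not examined, and how well the deposited counts separate the 2 genes was not tested.

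Both promoter windows hold matches to the metal response element, the site at which Mtf1 binds. They are printed from 250 bases before to 50 bases after the RefSeq start (GRCm38.p6, plus strand; Mt1 at chr8:94178839-94179138 and Mt2 at chr8:94172368-94172667) because both genes were measured to move together. Capitals mark TGCGCNC or TGCACNC on either strand.
Mt1 promoter: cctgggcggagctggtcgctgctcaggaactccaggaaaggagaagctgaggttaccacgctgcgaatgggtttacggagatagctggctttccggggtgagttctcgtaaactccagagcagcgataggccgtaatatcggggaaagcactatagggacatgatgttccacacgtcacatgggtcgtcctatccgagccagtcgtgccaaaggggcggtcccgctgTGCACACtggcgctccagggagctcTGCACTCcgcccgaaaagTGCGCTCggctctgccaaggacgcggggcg
Mt2 promoter: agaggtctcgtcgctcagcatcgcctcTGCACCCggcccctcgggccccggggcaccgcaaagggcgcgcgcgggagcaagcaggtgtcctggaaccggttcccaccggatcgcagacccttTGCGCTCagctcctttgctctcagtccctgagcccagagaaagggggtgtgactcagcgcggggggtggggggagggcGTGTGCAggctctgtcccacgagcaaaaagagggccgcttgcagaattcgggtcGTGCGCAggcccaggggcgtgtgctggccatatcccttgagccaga
The Mt1 window holds 3 matches and the Mt2 window 4. Each window follows 1 RefSeq start and ends before the coding sequence, which begins at chr8:94179311 in Mt1 and chr8:94172848 in Mt2. The bases between, and windows of other starts, were not searched, so that these counts may not cover the promoter in use. Of 32851 mouse promoter windows of the same length, 15.388% hold TGCGCNC, 12.59% hold TGCACNC, 1.969% hold at least 3 matches of either form and 0.517% at least 4. A match describes letters only, and does not show that a factor was bound in these livers.

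Mt1 was high in all A10 livers and spread widely after busulfan. Its level was 26.3, 11.4 and 3.69 CPM in the BA10 libraries, 8.04, 32.0 and 3.73 CPM in BA0, 40.3, 44.7 and 50.04 CPM in A10, and 6.02, 3.33 and 5.15 CPM in A0. The A10 libraries lay above all 9 others, whereas BA10 and BA0 each held libraries at the A0 level and libraries well above it. Mt2 was 10.5, 6.62 and 1.43 CPM in BA10, 3.26, 15.5 and 0.98 CPM in BA0, 20.2, 28.4 and 15.5 CPM in A10, and 2.54, 0.82 and 1.94 CPM in A0. As for Mt1, the 3 A10 libraries were the highest in CPM and A0 replicate 2 was the lowest, although the order within A10 differed between the genes. For Mt2, A10 replicate 3 (15.54 CPM) and BA0 replicate 2 (15.49 CPM) were nearly equal, and their order depended on the scaling. In the deposited RPKM BA0 replicate 2 (38.97) lay above A10 replicate 3 (38.12). The lowest Mt2 value rests on 13 counts.

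**Figure D1:**
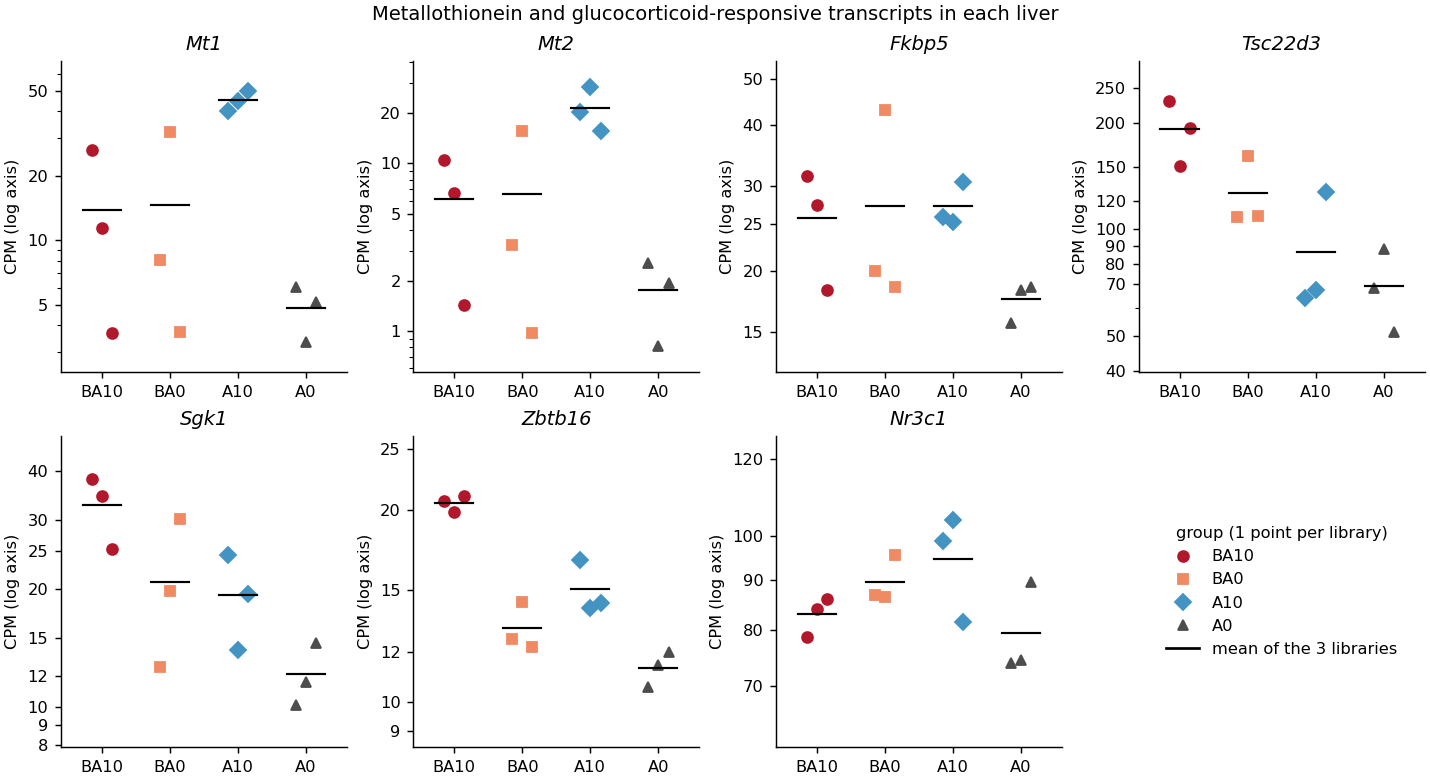
Level of each of the 7 genes in CPM (TMM-scaled, log axis) in every library of BA10, BA0, A10 and A0. Points are libraries and horizontal lines are the mean of 3. Mt1 lies between 40.3 and 50.04 CPM in A10 and between 3.33 and 6.02 CPM in A0, Zbtb16 lies between 19.9 and 21.1 CPM in BA10 and above every other library, and Nr3c1 spans only 73.8 to 104 CPM over all 12.

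Mean Mt1 was 45 ± 4.88 CPM in A10 and 4.83 ± 1.37 CPM in A0 (SD, n = 3 each), a log2 fold change of 3.22 ± 0.77 (SE). It passed the threshold (adjusted p = 0.0474, edgeR quasi-likelihood test, Benjamini-Hochberg over 12896 genes). It was the only one of the 7 genes called in A10 against A0, where 3.64% of all tested genes were called in either direction and 2.14% as higher. Mt1, Mt2, Fkbp5 and Zbtb16 lay above A0 without overlap, as did 14.2% of all tested genes. Mt2 averaged 21.4 ± 6.51 CPM in A10 and 1.77 ± 0.875 CPM in A0, with a log2 fold change of 3.6 ± 0.91 that missed the threshold (edgeR adjusted p = 0.0526). By size of the log2 fold change, Mt2 was 27th and Mt1 31st of the 11804 genes with a mean of at least 1 CPM. The call of Mt1 was lost on leaving out any 1 of the 12 libraries, with edgeR adjusted p between 0.0509 without A0 replicate 3 and 0.176 without A0 replicate 2, while its log2 fold change stayed between 2.99 and 3.38. With the length and GC trends removed the Mt1 difference was 3.44 and the Mt2 difference 3.99 (edgeR adjusted p = 0.111 for each), and 2 genes in all were called against 469.

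After busulfan neither gene differed from A0 beyond the threshold. In BA10 the means were 13.8 ± 11.5 CPM for Mt1 and 6.17 ± 4.53 CPM for Mt2, with log2 fold changes over A0 of 1.51 ± 0.76 and 1.80 ± 0.91 (edgeR adjusted p = 0.204 for each). In BA0 they were 14.6 ± 15.2 and 6.57 ± 7.8 CPM, with log2 fold changes over A0 of 1.59 ± 0.76 and 1.90 ± 0.90 (edgeR adjusted p = 0.191 and 0.192). BA10 and BA0 did not differ detectably, and the 95% interval of the BA10 against BA0 difference ran between -1.63 and 1.46 for Mt1 and between -1.87 and 1.68 for Mt2.

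All 3 BA10 libraries lay below all 3 A10 libraries for both genes. The log2 fold change of BA10 over A10 was -1.71 ± 0.71 for Mt1 and -1.80 ± 0.80 for Mt2, and neither passed the threshold (edgeR adjusted p = 0.505 and 0.559; 6.85% of all tested genes were lower without overlap in this comparison, and 0.124% were called). Of the 7 genes 0 were called there by edgeR, and 5 had an unadjusted p under 0.05, as did 8.72% of all genes. The AOS difference with busulfan minus that without was -3.30 ± 1.04 for Mt1 and -3.69 ± 1.21 for Mt2 on the log2 scale. Their unadjusted p-values in the edgeR fit were 0.00822 and 0.0105, and the adjusted ones 0.205 and 0.212, so that a difference of the AOS effect between mice with and without busulfan was not shown over all genes. In the interaction 7 of 12896 genes (0.0543%) were called, and none of them was one of the 7 genes described here, of which Mt1, Mt2 and Nr3c1 had an unadjusted p under 0.05, as did 15.5% of all genes.

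Mt1 and Mt2 followed each other closely from library to library. Over the 12 libraries their log2 CPM correlated with Pearson's r = 0.98 and Spearman's rho = 0.97 (permutation p = 1e-05 for each, the smallest that 100000 resamples can give, and 0.00021 adjusted over the 21 pairs of members). Without A10 replicates 2 and 3, which lie farthest from the median of Mt1, r was 0.99, and within groups it was 0.96. Among 11804 genes Mt2 had the pattern most like that of Mt1, and Mt1 the one most like that of Mt2, followed for both by Acot4, an acyl-CoA thioesterase, and Kng2, a kininogen gene. Per length the Mt1 level (RPKM) was above the Mt2 level in all 12 libraries, by 1.62-fold in A10 replicate 2 to 4.09-fold in A0 replicate 2. The log2 ratio of Mt1 to Mt2 averaged 1.14 ± 0.39 in the 6 libraries with AOS and 1.49 ± 0.40 in the 6 without (difference -0.36, two-sided exact permutation p = 0.154), and 1.29 ± 0.39 in the 6 with busulfan and 1.34 ± 0.49 in the 6 without (difference -0.04, two-sided exact permutation p = 0.874).

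**Figure D2:**
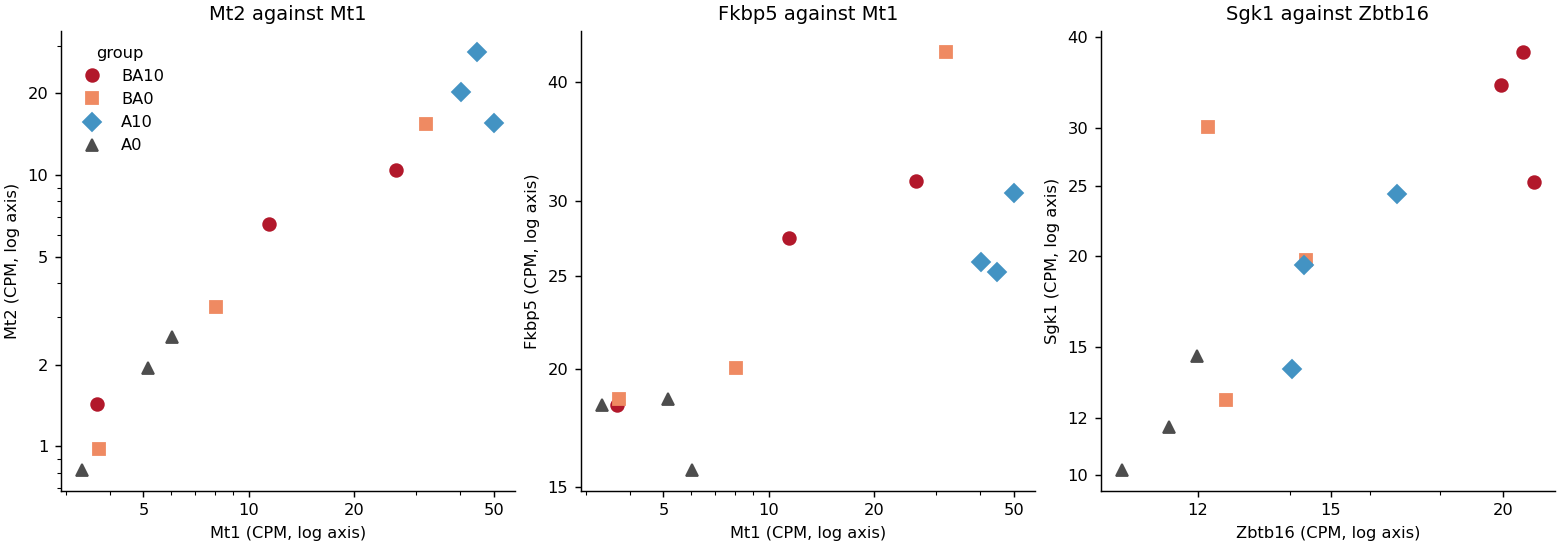
Levels of gene pairs in CPM on log axes, with 1 point per library coloured by group. Mt2 rises with Mt1 across all groups (r = 0.98), Fkbp5 follows Mt1 with BA0 replicate 2 at the top (r = 0.81), and Sgk1 follows Zbtb16 with A0 at the bottom left (r = 0.80).

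The list of metallothioneins and zinc transporters had 23 of its 29 genes tested. In BA10 against A0 1 was higher and 1 lower, where 10.1% of all genes were called, in A10 against A0 only Mt1 was higher, where 3.64% of all genes were called, and in BA0 against A0, BA10 against BA0 and BA10 against A10 none was called (edgeR). The median log2 fold change of the 21 tested genes other than Mt1 and Mt2 in A10 against A0 was 0.10, against 0.03 over all genes. Mtf1, the factor that senses zinc, averaged 19.0 ± 2.99 CPM in BA10 and 12.9 ± 0.465 CPM in A0 and rose by 0.56 ± 0.13 on the log2 scale (edgeR adjusted p = 0.0232). Slc39a4, a zinc importer, averaged 64.2 ± 8.5 CPM in BA10 and 99 ± 7.98 CPM in A0 and fell by 0.62 ± 0.16 (edgeR adjusted p = 0.0355). Neither call held without any 1 of A0 replicates 1 or 2 and BA10 replicates 1 or 3, or with the length and GC trends removed, where 0 genes of the list were called in BA10 against A0. Without BA10 replicate 2 it had 1 higher and 0 lower, and without A0 replicate 3 it had 3 higher and 3 lower, while 2 were higher without A10 replicates 2 or 3 or BA0 replicate 3. Of the genes with the smallest p in the pooled comparisons, the zinc transporter Slc30a5 averaged 42.2 ± 1.82 CPM in BA10, 40.8 ± 3.76 in BA0, 35.0 ± 8.78 in A10 and 28.6 ± 4.25 in A0. The zinc exporter Slc30a4 averaged 18.1 ± 0.553, 16.4 ± 0.602, 18.3 ± 1.22 and 14.3 ± 2.73 CPM in the same order.

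Nr3c1, the receptor gene, varied little (Entrez 14815, minus strand, chr18:39410545-39519421). It was 78.7, 84.1 and 86.1 CPM in BA10, 86.9, 86.5 and 95.5 CPM in BA0, 98.9, 103.9 and 81.4 CPM in A10, and 73.8, 74.5 and 89.7 CPM in A0. The lowest and highest of the 12 libraries differ less than 1.5-fold, and A0 overlaps every other group. The log2 fold change over A0 was 0.06 ± 0.11 in BA10 (95% interval -0.18 to 0.31), 0.18 ± 0.11 in BA0 (-0.06 to 0.42) and 0.26 ± 0.11 in A10 (0.01 to 0.50), and none passed the threshold (edgeR adjusted p = 0.731, 0.312 and 0.179). These signs are not settled, since with the length and GC trends removed they were -0.29, -0.20 and -0.09. The genes most like Nr3c1 over the libraries were Rbbp6 (r = 0.945), Lrp6 (0.921) and Trip4 (0.919).

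Fkbp5 (Entrez 14229, minus strand, chr17:28399094-28517527) was 31.5, 27.5 and 18.3 CPM in BA10, 20.1, 43.0 and 18.6 CPM in BA0, 25.9, 25.3 and 30.6 CPM in A10, and 15.7, 18.3 and 18.6 CPM in A0. BA0 replicate 2, also the highest library with busulfan for Mt1 and Mt2, was the highest of all, and A0 overlapped BA10 and BA0 but not A10. The log2 fold change over A0 was 0.56 ± 0.29 in BA10, 0.64 ± 0.29 in BA0 and 0.64 ± 0.29 in A10, and none passed the threshold (edgeR adjusted p = 0.225, 0.179 and 0.203). Without BA0 replicate 2 the difference of BA0 over A0 was 0.14. Fkbp5 correlated with Mt1 over the 12 libraries (r = 0.81, permutation p = 0.00244, adjusted 0.0161; rho = 0.77, permutation p = 0.00492, adjusted 0.0344). Without A10 replicates 2 and 3 r was 0.84, and within groups it was 0.89. With Mt2 r was 0.78 (permutation p = 0.00306, adjusted 0.0161) and rho 0.73 (permutation p = 0.00929, adjusted 0.0488), and r was 0.84 without A10 replicate 2 and A0 replicate 2. The genes most like it were Pcnp, Msantd4 and Tent4a (r between 0.903 and 0.916).

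The receptor's chaperones and coregulators were 19 tested genes, Nr3c1 and Fkbp5 included. In BA10 against A0 6 were higher and 0 lower, with a median log2 fold change of 0.38 in the 17 others and 0.01 over all genes (edgeR; 6.95% of all tested genes were called higher). Hsp90aa1, the inducible Hsp90 that holds the receptor, averaged 801 ± 294 CPM in BA10 and 253 ± 41.8 CPM in A0 and rose by 1.66 ± 0.33 (edgeR adjusted p = 0.015). Hspa8, a constitutive Hsp70, averaged 1680 ± 214 CPM in BA10 and 684 ± 88.6 CPM in A0 and rose by 1.30 ± 0.29 (edgeR adjusted p = 0.0235). Dnajb1, an Hsp40 partner of Hsp70, averaged 127 ± 59.7 CPM in BA10 and 27.9 ± 11.6 CPM in A0 and rose by 2.18 ± 0.43 (edgeR adjusted p = 0.0141). These 3 are also heat shock and general folding genes. The coregulators Ncoa2, Ncor1 and Ep300 rose by 0.30, 0.38 and 0.40 (edgeR adjusted p = 0.0405, 0.0393 and 0.0305). In BA0 against A0 Ncoa1 and Ep300 were called higher, and in A10 against A0 Ncor1 was, and with 1 library left out these counts ran between 0 and 4 and between 0 and 1. Over all genes 527 of 12896 were called higher in BA0 against A0 and 2.14% in A10 against A0. The count of 6 in BA10 against A0 was 0 without A0 replicate 1, 1 without A0 replicate 2, 0 without BA10 replicate 1, 2 without BA10 replicate 3 and 4 to 9 without any 1 other library, and the median over the 19 genes was 0.15 with the length and GC trends removed, against 0.38. Of 6 tested genes for steroid supply and breakdown, among them Serpina6, which encodes the corticosteroid carrier of blood, and Hsd11b1, which regenerates active hormone, 0 were called in any of the 8 comparisons (edgeR). Hsd11b1 averaged 588 ± 54.1 CPM in BA10, 566 ± 87.0 in BA0, 626 ± 78.6 in A10 and 565 ± 26.3 in A0.

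Zbtb16 (Entrez 235320, minus strand, chr9:48654297-48836222) was highest in BA10 and lowest in A0. It was 20.7, 19.9 and 21.1 CPM in BA10, 12.6, 14.4 and 12.2 CPM in BA0, 16.8, 14.1 and 14.3 CPM in A10, and 10.6, 11.4 and 11.99 CPM in A0. All BA10 libraries lay above all others, A0 lay below all others, and BA0 and A10 overlapped. The gap between A0 and BA0 was narrow and depended on the scaling, since in the deposited RPKM A0 replicate 3 (1.44) lay above BA0 replicate 1 (1.36). Of all tested genes 19.1% lay higher without overlap in BA10 than in A0, 18.8% in BA0 than in A0 and 5.53% in BA10 than in BA0. In BA10 against A0 it rose by 0.86 ± 0.11 on the log2 scale (95% interval 0.63 to 1.09, edgeR adjusted p = 0.00253, 23rd of 12896 genes by p). The call held in each of the 12 fits without 1 library (edgeR adjusted p 0.00186 to 0.0198) and with the length and GC trends removed (0.81, edgeR adjusted p = 0.00637). Without A0 replicates 1 and 2 together the difference was 0.76 (edgeR adjusted p = 0.185), in a fit where 1 gene in all was called.

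BA10 over BA0, the comparison of AOS after busulfan with busulfan alone, gave 0.65 ± 0.11 for Zbtb16 (unadjusted p = 5.44e-05 in the edgeR fit, adjusted p = 0.0715). It was 9th of all genes by p, whereas 7 genes (0.0543%) were called in that comparison. Of the 7 genes 0 were called there by edgeR. Zbtb16 and Sgk1 had an unadjusted p under 0.05 (for Sgk1 a log2 fold change of 0.64 ± 0.29 in the edgeR fit), as did 573 of all genes (4.44%), and DESeq2 called Zbtb16 (log2 fold change 0.66, adjusted p = 0.000546). In A10 over A0 the Zbtb16 difference was 0.41 ± 0.11 (edgeR adjusted p = 0.0568), again with no overlap. Pooled over busulfan, the 6 AOS libraries averaged 17.8 ± 3.18 CPM and the 6 without AOS 12.2 ± 1.28 CPM. This difference, 0.53 ± 0.07 on the log2 scale, was called (edgeR adjusted p = 0.0463) and was 4th of all genes by p, where 6 genes (0.0465%) were called. It sits at the threshold. The call was kept without BA0 replicate 2 (edgeR adjusted p = 0.0463) and lost without any 1 of the other 11 libraries (0.0511 without A0 replicate 3 to 0.174 without BA0 replicate 1), and the log2 difference ran between 0.49 and 0.57. It was lost too with the replicate block (edgeR adjusted p = 0.0961), upper-quartile factors (0.0648), no filter (0.051) and the length and GC trends removed (0.0668). The AOS difference with busulfan minus that without was 0.25 ± 0.15 (95% interval -0.08 to 0.57, edgeR adjusted p = 0.438).

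The 2 busulfan groups pooled averaged 16.8 ± 4.18 CPM of Zbtb16, against 13.2 ± 2.29 CPM in the 2 groups without, a log2 difference of 0.33 ± 0.07 (edgeR adjusted p = 0.0411, with 2.43% of all genes called higher). This call held only without A0 replicate 3 (edgeR adjusted p = 0.0352) or A10 replicate 3 (0.0394), and was lost without any other single library (0.0507 without A10 replicate 1 to 0.107 without A10 replicate 2). With the replicate number as a block it was lost too. Zbtb16 also marks NKT cells of liver. The 10 T, NK and NKT cell markers, of which 2 passed the filter, summed to 3.73 to 6.26 CPM in BA10, 4.58 to 5.51 in BA0, 4.29 to 6.7 in A10 and 3.76 to 11 in A0, and the part of these cells in the Zbtb16 differences was not tested. The genes most like Zbtb16 were Aldh18a1, an enzyme of proline synthesis (r = 0.907), Paics, an enzyme of purine synthesis (0.894), and Btg1, an antiproliferative regulator (0.891).

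**Figure D3:**
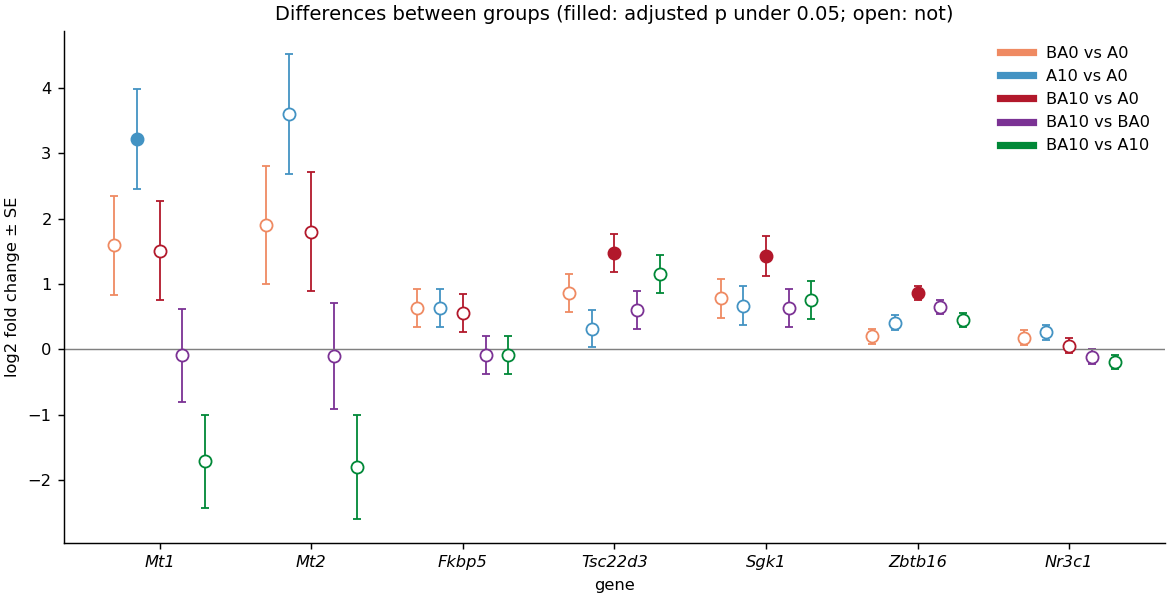
Log2 fold change ± SE of the 7 genes in 5 comparisons, from the edgeR fit over 12 libraries. Filled points passed an adjusted p of 0.05: Mt1 in A10 vs A0 (3.22) and Tsc22d3 (1.47), Sgk1 (1.43) and Zbtb16 (0.86) in BA10 vs A0, while the bars of Mt1 and Mt2 are the longest.

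Tsc22d3 (Entrez 14605, minus strand, chrX:140539528-140600659) was 230.3, 150.8 and 192.8 CPM in BA10, 108.5, 160.9 and 109.3 CPM in BA0, 64.1, 67.3 and 127.3 CPM in A10, and 68.2, 88.1 and 51.4 CPM in A0. BA10 and BA0 each lay above A0 without overlap, as did 19.1% and 18.8% of all tested genes, and BA10 lay above A10, as did 6.65%. It rose by 1.47 ± 0.29 in BA10 against A0 (95% interval 0.82 to 2.11, edgeR adjusted p = 0.0157), where 3 of the 7 genes were called, all higher. Of all tested genes 6.95% were called higher in that comparison and 10.1% in either direction. The call was lost without A0 replicate 1 (1.44, edgeR adjusted p = 0.0621) or BA10 replicate 1 (1.29, 0.0642), and held with the length and GC trends removed (1.46, 0.0194).

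In BA0 against A0 the Tsc22d3 difference was 0.87 ± 0.29, which missed the threshold (edgeR adjusted p = 0.0832) and was called by DESeq2. In that comparison edgeR called 6.38% of all genes but 0 of the 7, of which Tsc22d3 and Sgk1 had an unadjusted p under 0.05 (0.0117 and 0.0235), as did 28.5% of all genes. Pooled over AOS, the 6 busulfan libraries averaged 159 ± 47.6 CPM of Tsc22d3 and the 6 without busulfan 77.7 ± 27.0 CPM, and it rose by 1.01 ± 0.20 (edgeR adjusted p = 0.0272; 3.27% of all genes were called). That call was lost with the replicate block and without any 1 of A0 replicate 1 (0.066), A10 replicates 1 (0.0658) or 2 (0.0757), BA0 replicates 2 (0.0601) or 3 (0.0536) and BA10 replicates 1 (0.0716) or 3 (0.0618). BA10 over A10 gave 1.15 ± 0.29 (edgeR adjusted p = 0.19). Without A10 replicate 3, the A10 library with the most Tsc22d3, this difference was 1.54 and was called (edgeR adjusted p = 0.0252).

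Tsc22d3 was not shown to move with the metallothioneins. With Mt1 r was 0.08 (permutation p = 0.798, adjusted 0.838) and rho -0.01 (permutation p = 0.991, adjusted 0.991). Without A10 replicates 2 and 3 this r was 0.21, and within groups it was 0.33. With Mt2 r was 0.06 (permutation p = 0.86, adjusted 0.86), and within groups 0.1. The genes most like it over the libraries were Bag3, a co-chaperone of Hsp70 (r = 0.967), Herpud1, a gene of endoplasmic reticulum protein quality control (0.967), and Klf15, a transcription factor of gluconeogenesis and amino acid breakdown that is itself a receptor target (0.962). For each member such genes are the highest of 11804 by r over 12 libraries, so that high r values follow in part from the selection. Bag3 averaged 136 ± 34.5 CPM in BA10, 73.6 ± 18 in BA0, 46.7 ± 18.1 in A10 and 42.4 ± 15 in A0. Klf15 averaged 123 ± 8.03, 94.9 ± 10.9, 73.5 ± 25.8 and 70.7 ± 14.6 CPM in the same order.

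Sgk1 (Entrez 20393, plus strand, chr10:21882184-21999903) has several start sites. The window of one of them (RefSeq, GRCm38.p6, chr10:21993640-21993939, plus strand) is printed because it holds a full match, in capitals, to the palindromic glucocorticoid response element, whose middle bases are free.
Sgk1 promoter: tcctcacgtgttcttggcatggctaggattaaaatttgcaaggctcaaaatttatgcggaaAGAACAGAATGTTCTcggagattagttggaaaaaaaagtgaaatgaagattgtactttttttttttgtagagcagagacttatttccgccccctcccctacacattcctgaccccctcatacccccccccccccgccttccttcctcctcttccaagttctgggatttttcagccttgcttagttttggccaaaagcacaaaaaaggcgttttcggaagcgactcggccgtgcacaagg
The element lies at chr10:21993701-21993715 and begins at position -189 from the start. Only 3 of the 32851 windows (0.009%) hold a match on either strand, and none of the other 11 windows of the members does. Sites with other letters or outside these windows were not searched. A match or its absence does not show whether the receptor was bound in these livers. RefSeq windows were found for 5 of the 7 genes, Zbtb16 and Nr3c1 being the others. The counts are per gene and do not say which start was used.

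Sgk1 was 38.2, 34.4 and 25.3 CPM in BA10, 12.7, 19.8 and 30.1 CPM in BA0, 24.3, 14.0 and 19.5 CPM in A10, and 10.2, 11.6 and 14.6 CPM in A0. BA10 lay without overlap above A10, as did 6.65% of all tested genes, and above A0, as did 19.1%, while BA0 overlapped all other groups. It rose by 1.43 ± 0.30 in BA10 against A0 (95% interval 0.77 to 2.08, edgeR adjusted p = 0.0187). The call was lost without A0 replicate 1 (1.30, edgeR adjusted p = 0.0817), A0 replicate 2 (1.38, 0.0784) or BA10 replicate 1 (1.28, 0.0725), and held with the length and GC trends removed (1.41, 0.0228). Pooled over AOS, the busulfan libraries averaged 26.7 ± 9.47 CPM of Sgk1 and those without busulfan 15.7 ± 5.3 CPM, a difference of 0.77 ± 0.21 that missed the threshold (edgeR adjusted p = 0.0706). Pooled over busulfan, the AOS libraries averaged 26.0 ± 9.04 CPM and those without AOS 16.5 ± 7.46 CPM (0.66 ± 0.21, edgeR adjusted p = 0.224).

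Sgk1 and Zbtb16 correlated over the 12 libraries (r = 0.80, permutation p = 0.00263, adjusted 0.0161; rho = 0.78, permutation p = 0.00405, adjusted 0.0344), but within groups r was 0.29, so that the relation lay mostly between groups. Without BA10 replicate 1 and A0 replicate 1, r was 0.68. The genes most like Sgk1 were Adamts1, an extracellular protease (r = 0.925), Rapgef5, a Rap guanine nucleotide exchange factor (0.921), and Fam124a (0.909). Markers of sinusoidal endothelium moved in the same direction. Their 7 genes summed to 203 to 261 CPM in BA10, 176 to 215 in BA0, 158 to 215 in A10 and 113 to 115 in A0, and 7 of 7 were called higher in BA10 against A0, 3 in BA0 against A0 and 4 in A10 against A0 (edgeR). Over all genes 6.95% were called higher in BA10 against A0, 527 of 12896 in BA0 against A0 and 2.14% in A10 against A0. The 8 stellate cell markers summed to 278 to 341 CPM in BA10 and 178 to 270 in A0. In BA10 against A0 4 of them had positive log2 fold changes, and 2 were called higher (edgeR). Of 11 Kupffer cell and macrophage markers 10 were positive there (median 0.36), and 0 were called. The part of RNA from these cells in the Sgk1 difference was not tested.

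A wider list of glucocorticoid target genes in liver held further genes that were higher in BA10 than in A0. Of its 42 genes 41 were tested, 35 of them beside the members Mt1, Mt2, Fkbp5, Tsc22d3, Sgk1 and Zbtb16. In BA10 against A0 13 of these 35 were called higher, 0 lower and 22 not (edgeR), with a median log2 fold change of 0.50, against 0.01 over all genes and 6.95% of all genes called higher. With the members the count was 16 of 41, and 36 of the 41 log2 fold changes were positive. It was 4 without A0 replicate 1, 8 without A0 replicate 2, 4 without BA10 replicate 1 and 11 to 17 without any 1 other library. It was 12 with the length and GC trends removed and 0 without A0 replicates 1 and 2, where the list's median was 0.73. The list was chosen with results of these data known, and its count describes these libraries.

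The largest rise in the list was that of Igfbp1, a binding protein of insulin-like growth factors that is raised in fasting. It averaged 308 ± 67.1 CPM in BA10, 63.9 ± 22.7 in BA0, 32.6 ± 19.9 in A10 and 24.2 ± 8.32 in A0. It rose by 3.67 ± 0.44 in BA10 against A0 (edgeR adjusted p = 0.0025) and by 3.24 ± 0.43 in BA10 against A10 (edgeR adjusted p = 0.0203), the one gene of the list called in that comparison, where 0.0931% of all genes were called higher. The list had 0 calls in BA10 against A10 without any 1 of A0 replicate 3, A10 replicates 1 or 2 and BA10 replicates 1 or 2, 3 without BA0 replicate 2, 2 without BA0 replicate 3 and 7 without A10 replicate 3, 0 with the replicate block, and 12 by DESeq2. Over all genes DESeq2 called 154 of 12896 there. Per1 and Per2, period genes of the clock that also carry glucocorticoid response elements, rose by 2.09 ± 0.31 and 1.30 ± 0.26 in BA10 against A0 (edgeR adjusted p = 0.00543 and 0.0151). Per1 averaged 24.6 ± 2.79 CPM in BA10, 14.8 ± 7.03 in BA0, 8.16 ± 2.65 in A10 and 5.77 ± 0.659 in A0, and was the one gene of the list called in BA0 against A0 (1.36 ± 0.31, edgeR adjusted p = 0.0351). Over all genes 6.38% were called in that comparison, with 527 of 12896 called higher. In BA0 against A0 the list had 0 higher calls without any 1 of A0 replicates 1 or 2, BA0 replicates 2 or 3 and BA10 replicates 1, 2 or 3, 2 on leaving out A10 replicate 2, BA0 replicate 1 or A0 replicate 3, 4 without A10 replicate 3, and 0 with the length and GC trends removed. It had 35 positive log2 fold changes of 41 there, and 0 to 1 lower calls with 1 library left out. Tat, tyrosine aminotransferase and a classical hormone-induced enzyme of liver, averaged 2160 ± 224 CPM in BA10, 1570 ± 174 in BA0, 949 ± 340 in A10 and 972 ± 175 in A0, and rose by 1.15 ± 0.24 in BA10 against A0 (edgeR adjusted p = 0.0169). Irs2, an adaptor of the insulin receptor, rose by 1.52 ± 0.29, Lpin1, a phosphatidate phosphatase induced in fasting, by 2.18 ± 0.53, Nfkbia, the NF-kappaB inhibitor, by 1.10 ± 0.19 and Mertk, a receptor for the clearance of dead cells, by 0.81 ± 0.16 (edgeR adjusted p = 0.0125, 0.0311, 0.00977 and 0.0167).

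**Figure D4:**
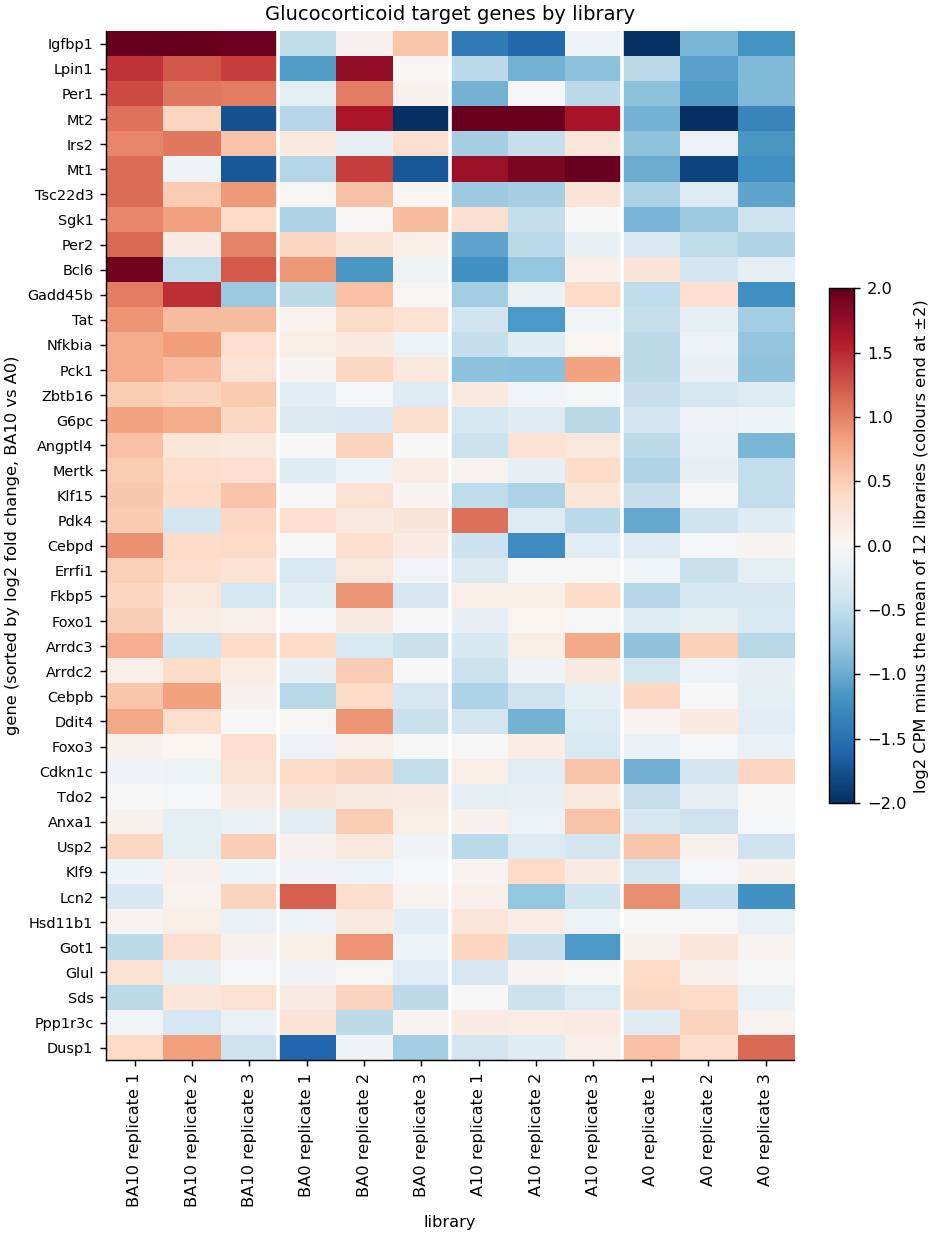
Log2 CPM of 41 glucocorticoid target genes in each library, as the difference from that gene's mean over the 12 libraries, with genes sorted by the BA10 vs A0 difference. Colours end at 2 in either direction, which 7 of 492 values pass. BA10 libraries have 30 to 34 genes above their mean and A0 libraries 6 to 11.

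Library by library, the number of the 41 genes above their own mean was 34, 31 and 30 in BA10, 18, 32 and 20 in BA0, 15, 12 and 21 in A10, and 9, 11 and 6 in A0. Among busulfan livers BA0 replicate 2 stood with BA10. Pooled over AOS, 10 of the 41 were called higher with busulfan and 0 lower (edgeR; 2.43% of all genes were called higher), with a median of 0.33 against 0.00 over all genes. This count was 4 without A0 replicate 1, 4 without A10 replicate 1, 3 without A10 replicate 2, 6 without BA0 replicate 3, and 3, 6 and 5 without BA10 replicates 1, 2 and 3, and 5 with the replicate block. In A10 against A0 the list had 1 call, Mt1, where 3.64% of all genes were called. Its other 35 genes had a median of 0.13, against 0.03 over all genes, and 28 of the 41 log2 fold changes were positive. DESeq2 called 3 of the 41 there, and 1303 of 12896 over all genes. Pooled over busulfan, the one call for AOS was Zbtb16, where 0.0465% of all genes were called. In BA10 against BA0 0 were called (edgeR), with a median of 0.32 against -0.01 over all genes.

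Other inducers of metallothionein and the clock were described by the same kind of list. Of 23 acute phase genes tested, which include those driven by interleukin 6, Il6st, the shared receptor subunit of that family, was higher in BA10, BA0 and A10 against A0 (0.57, 0.61 and 0.59, edgeR adjusted p = 0.0135, 0.0219 and 0.0401). Il6ra, the receptor chain specific to interleukin 6, was higher in A10 against A0 (0.66, edgeR adjusted p = 0.0404). Of all tested genes 10.1%, 6.38% and 3.64% were called in BA10, BA0 and A10 against A0. Il6st averaged 77.0 CPM in A0, and 114, 117 and 116 CPM in BA10, BA0 and A10. Saa1, serum amyloid A, averaged 28.1 ± 5.46 CPM in BA10 and 103 ± 101 CPM in A0, where it ran between 42.3 and 220 CPM, and fell by 1.87 ± 0.54 (edgeR adjusted p = 0.0491), and Apcs fell by 0.71 in BA0 against A0 (edgeR adjusted p = 0.0322). The acute phase genes Hp and Orm1 were not called in any comparison. Of 9 tested genes of Nrf2, Nfe2l2, which encodes Nrf2 itself, rose by 1.06 ± 0.13 in BA10 and by 0.91 ± 0.13 in BA0 against A0 (edgeR adjusted p = 0.00273 and 0.0154), and the other 8 genes, Nqo1 and Hmox1 among them, were not called. Of 17 clock genes tested, Clock, Per1 and Per2 were higher in BA10 against A0, and the list's median was -0.04. Clock was also called in BA0 and A10 against A0. It averaged 50.6 CPM in A0, and 87.6, 79.9 and 80.9 CPM in BA10, BA0 and A10. The calls of these lists against A0 share its 3 libraries, and how far they hold without single libraries is not given here. With the length and GC trends removed, A10 against A0 had 2 calls over all genes, against 469. The labels and the study's methods do not state the hour at which livers were taken.

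The order of levels among the 7 genes was read per length. In A10 Mt1 was highest, at 114 ± 12.4 RPKM, followed by Mt2 at 52.5 ± 16.1 and Tsc22d3 at 47.6 ± 19.3, which overlapped. In the other groups Tsc22d3 was highest, at 106 ± 17.8 RPKM in BA10, 70.7 ± 17.4 in BA0 and 33.6 ± 7.28 in A0, although in BA0 its libraries overlapped those of Mt1 (37.1 ± 38.8 RPKM). Nr3c1 lay at 13.8 ± 1.36, 14.8 ± 1.11, 15.5 ± 2.03 and 11.7 ± 2.42 RPKM in BA10, BA0, A10 and A0. In A0 it overlapped Mt1, at 10.6 ± 3.22 RPKM. Zbtb16 was the lowest in each group, at 2.51 ± 0.248, 1.48 ± 0.111, 1.80 ± 0.378 and 1.14 ± 0.271 RPKM in that order, below every library of the other 6 genes in the same group. The deposited RPKM implies 8909 bases for Zbtb16, whereas its longest GENCODE transcript has 5114, so that its distance from the other genes depends on the length used.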

How the data were processed

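RNA of 12 liver libraries was sequenced by the authors from oligo(dT)-selected mRNA on an Illumina HiSeq instrument, and reads were aligned to reference genes with SOAPaligner, with build mm10 per the labels. The deposited table gives an estimated count and an RPKM (reads per kilobase of transcript, scaled to mapped reads, made by the authors) per gene and library. Between 78.6% and 80.3% of counts were whole, and how the decimals arose is not stated. Its 8 columns of group means were not used. Counts were rounded, filtered (filterByExpr, at least 0.593 CPM) and fitted over all 12 libraries with edgeR 4.0.16 (R 4.3.3), with TMM factors and a quasi-likelihood test, and adjusted by Benjamini-Hochberg over 12896 genes, with calls at 0.05. CPM are relative to TMM-scaled totals. DESeq2 1.42.0, limma 3.58.1 and other settings were alternatives. On simulated counts of BA0 against A0 (12777 genes) edgeR called 64 of 100 genes changed by 1 and 97 of 100 changed by 2 on the log2 scale, with 2 false calls. Apart from the changed genes, all simulated libraries shared 1 mean profile, without the length and GC trends of A0 replicates 1 and 2. These counts therefore do not measure false calls in the real libraries. Correlations used 100000 permutations (scipy 1.17.1). All 12 libraries were permuted regardless of group, so that these p-values also take in differences between groups. The r within groups has no p-value. Promoters come from RefSeq, coding sequences from GENCODE M21.

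The members, gene lists and tests were chosen with earlier results of these data known. All 7 members were named. Apart from cell markers, other names come from a pool set by rule. It holds, of each list, up to 5 genes with the smallest p in each pooled comparison and up to 8 called genes per comparison. The 3 genes nearest to each member were added. Only part of the pool is named. That part was chosen after the values were seen, Hsd11b1, Serpina6, Hp, Orm1, Nqo1 and Hmox1 included.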

Additional observations from a re-analysis of the deposited data

How the results depend on the processing

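Of 1435 fold changes of the 7 genes recomputed under 26 settings, 1270 kept their direction and their side of the threshold, 76 were no longer past it, 17 newly passed it and 72 changed sign. Of the 7 genes 3 were called in BA10 vs A0, 2 for busulfan pooled, 1 in A10 vs A0, 1 for AOS pooled and 0 in the other comparisons (edgeR). Leaving out 1 library gave 0 to 1 in BA0 vs A0, 1 to 3 in BA10 vs A0, 0 to 1 in A10 vs A0, 0 to 1 in BA10 vs A10, 0 to 2 for busulfan pooled and 0 to 1 for AOS pooled. DESeq2 gave 1 in BA0 vs A0, 1 in BA10 vs BA0, 3 in A10 vs A0 and 1 in BA10 vs A10. limma on log2(RPKM + 0.1) and on log2(RPKM + 1) gave 1 in BA0 vs A0, 2 in A10 vs A0 and 0 for AOS pooled. In A10 vs A0 0 were called with RLE factors, no filter, limma-voom, robust empirical Bayes or the length and GC trends removed. For busulfan pooled 1 was called with RLE or upper-quartile factors, no filter or the trends removed. For AOS pooled 0 were called with upper-quartile factors, no filter or the trends removed. Without A0 replicates 1 and 2, a setting added after seeing the data, 0 were called in BA10 vs A0, in A10 vs A0, for busulfan pooled and for AOS pooled. The causes were not tested.

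Deviations from group means correlated by -0.07 to 0.14 between same-numbered libraries and by -0.20 to 0.16 between differently numbered ones. Pairs of replicate 1 were all positive (0.03 to 0.11), and those of replicates 2 and 3 had both signs. With 3 libraries per group these values cannot decide whether the numbers pair the libraries. The replicate block left 0 calls for busulfan pooled (Tsc22d3 adjusted p = 0.0509, Zbtb16 0.0643, edgeR) and 0 for AOS pooled (Zbtb16 0.0961), lost Mt1 in A10 vs A0 (3.26, 0.0505) and gained Mt2 (3.52, 0.0491). With the block and the trends removed 0 were called in A10 vs A0, for busulfan pooled and for AOS pooled.

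No value that changed sign outside the leave-one-out fits was called. Nr3c1 was -0.20 in BA0 vs A0, -0.29 in BA10 vs A0, -0.09 in A10 vs A0, 0.00 in the interaction and -0.09 for AOS pooled with the trends removed, and -0.20, -0.29, -0.10, 0.01 and -0.09 with the replicate block as well. Nr3c1 was also -0.03, -0.13 and -0.02 in BA0 vs A0, BA10 vs A0 and AOS pooled without A0 replicates 1 and 2, -0.01 in BA10 vs A0 with upper-quartile factors, and 0.10 and 0.09 for busulfan pooled on log2(RPKM + 0.1) and log2(RPKM + 1). In BA10 vs BA0 Mt1 was 0.04 with limma-voom, 0.03 and 0.02 on the RPKM scales, and Mt2 was 0.31, 0.32 and 0.26 there and 0.06 with the replicate block, with or without the trends. For busulfan pooled Mt1 was 0.02 with the trends removed, and Mt2 was -0.00 with upper-quartile factors, -0.49 with limma-voom, -0.27 with the block, -0.11 with block and trends, -0.37 and -0.38 on the RPKM scales and -0.03 without A0 replicates 1 and 2. The interaction of Tsc22d3 was -0.12 without those libraries. That of Sgk1 was 0.00 with RLE factors, DESeq2 or without Mup and Alb genes, 0.02 with upper-quartile factors, 0.07 with limma-voom, 0.01 with the block, 0.03 with the trends removed, 0.06 with both and 0.27 without A0 replicates 1 and 2. With 1 library left out, BA10 vs BA0 ran from -0.95 to 1.22 for Mt1, -0.70 to 1.54 for Mt2 and -0.29 to 0.41 for Fkbp5. Nr3c1 ran from -0.00 to 0.16 in BA10 vs A0, Tsc22d3 from -0.07 to 0.51 in A10 vs A0, Fkbp5 from -0.26 to 0.11 in BA10 vs A10 and the Sgk1 interaction from -0.28 to 0.34. Busulfan pooled ran from -0.71 to 0.17 for Mt1, -0.77 to 0.31 for Mt2, -0.06 to 0.04 for Nr3c1 and -0.18 to 0.09 for the log2 ratio of Mt1 to Mt2.

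Over all genes, the counts called moved by more than 1.5 times. BA10 vs A0 had 1307 calls, 558 with the trends removed and 1 without A0 replicates 1 and 2. BA0 vs A0 had 823, 1606 by DESeq2, 104 with the trends removed and 1 without those libraries. A10 vs A0 had 469, 1303 by DESeq2, 159 with no filter, 2 with the trends removed and 1 without those libraries. Busulfan pooled had 422, 880 by DESeq2 and 0 without those libraries. BA10 vs BA0, BA10 vs A10, the interaction and AOS pooled had 7, 16, 7 and 6, and 37, 154, 272 and 179 by DESeq2. Leaving out 1 library moved the counts that the shares of all genes rest on. A10 vs A0 had 1676 calls without A0 replicate 3 and 1 to 8 without any 1 of the other 11 libraries. BA0 vs A0 had 4 without A0 replicate 1, 4 without A0 replicate 2, 12 without BA0 replicate 3, 30 without BA0 replicate 2, 1875 without A0 replicate 3, 1309 without A10 replicate 3 and 340 to 627 without any other. BA10 vs A0 had 244 to 2156 and busulfan pooled 90 to 1089. With upper-quartile factors 645 genes were higher and 872 lower in BA10 vs A0, against 896 and 411.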
